A study of Mus musculus with 6 samples.

Results

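The genes described here encode claudins, further components of tight junctions and the proteins that set epithelial polarity. They were chosen by gene symbol, with earlier results of these data known, and number 74 of the 23420 genes in the uterine RNA-seq data. The members are 25 claudins, 6 MARVEL proteins and angulins, 3 junctional adhesion molecules (JAMs), 12 junction scaffolds, 7 genes of the Par complex, 5 of the Crumbs complex, 8 of the Scribble complex, 3 ERM proteins with their adaptor *Slc9a3r1*, and 4 catenins.

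Uteri were taken on pseudopregnancy day (PPD) 4.5, after mating with vasectomized males, from 8 week old C57BL/6J females. *Foxo1f/f* females carry floxed *Foxo1* alleles and are the controls, and *Foxo1d/d* females carry the same alleles with Cre recombinase at the *Pgr* locus (*PgrCre/+ Foxo1f/f*). Each library was made from the pooled RNA of 2 females, with 3 libraries per genotype and 6 in all. The comparison asks which transcripts differ when *Foxo1* is lost from PGR expressing cells, at the time when the luminal epithelium (LE) would receive an embryo. The genotypes also differ in the presence of Cre at the *Pgr* locus, whose part cannot be told apart from that of *Foxo1* loss. This Cre is confined neither to the epithelium nor to the uterus, and the ovary and pituitary are among its sites. RNA came from uterine tissue as a whole, so that LE, glandular epithelium (GE), stroma and muscle were not separated. In such RNA, fewer cells of a type and less RNA per cell cannot be told apart.

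Tight junctions seal the space between neighbouring epithelial cells near their apical side, and claudins form their strands, which let some ions through and hold others back. Occludin and tricellulin belong to the MARVEL family in the same strands, scaffolds such as ZO-1 tie the strands to actin, and the Par, Crumbs and Scribble complexes keep apical and basolateral membranes apart. In the uterus, the LE is remodelled from a polarized barrier to a surface that an embryo can attach to and pass.

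The values are the authors' means of raw counts over the libraries of each genotype. A library held on average 26125014 counts on genes in *Foxo1f/f* and 27257963 in *Foxo1d/d*. Each mean count, with a pseudocount of 1 added, was divided by that total, and *Foxo1d/d* was set over *Foxo1f/f* as a log2 ratio. Folds of single genes are ratios of the scaled means without the pseudocount. Because only a mean per genotype was used, the spread between pools cannot be computed, no test was made, and no difference given here has a replicate check. The 95% counting interval beside a ratio is an exact Clopper-Pearson interval of the summed counts and covers counting error only. As a check of the labels, *Foxo1* had an authors' mean count of 3941 in *Foxo1f/f* against 1456 in *Foxo1d/d* (log2 ratio -1.50, interval -1.55 to -1.45). The gene deleted by design was thus 2.82-fold lower in the uteri labelled *Foxo1d/d*, where some of its RNA was still counted.

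Of the 74 members, 63 reached an average of 10 counts over the genotypes. Among these 63, 6 were at least 1.5-fold higher in *Foxo1d/d* uteri, against 853 of all 15696 genes with such counts, which is 5.43%. The higher members were *Cldn22*, *Cldn2*, *Jam2*, *Tjp3*, *Ildr1* and *Cldn9*. *Cldn8* was the 1 member that was at least 1.5-fold lower, against 551 of all genes, or 3.51%. When ratios were centred on the median gene in place of the total count, *Dlg2* joined it, and the split became 6 higher and 2 lower. When they were centred on the median of 8 epithelial markers (*Epcam*, *Cdh1*, *Krt7*, *Krt8*, *Krt18*, *Krt19*, *Esrp1* and *Esrp2*), 0.19 on the log2 scale, an alternative chosen after seeing the data, the split was 3 higher and 6 lower, where 3.30% and 6.76% of all genes were. The median log2 ratio was -0.01 over the 63 members and 0.02 over all genes, and the median absolute log2 ratio was 0.12 and 0.14. By the log2 ratio, 29 members were higher and 34 lower in *Foxo1d/d*, where 55.1% of all genes were higher. Both medians of the members were close to those of all genes, and 3 of the 6 higher members (*Cldn22*, *Cldn2* and *Cldn9*) rested on few counts. Centred on the median gene, *Jam3* and *Lsr* turned from higher to lower. Centring on the epithelial markers subtracts 0.19 from each ratio, so that members between 0 and 0.19 turn lower by arithmetic, and 33.6% of all genes with such counts did; the members were these 2 and *Amotl2*, *Cgnl1*, *Cldn11*, *Cldn23*, *Cldn25*, *Crb3*, *Dlg1*, *Dlg3*, *F11r*, *Llgl1*, *Llgl2*, *Marveld2*, *Pard3*, *Pard6g*, *Prkci* and *Rdx*, 18 members in all.

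Many members are abundant, and over the 7103 genes that averaged 1000 counts or more the median absolute log2 ratio was 0.11, smaller than over all genes. Among the 41 members with a mean count of at least 1000, *Jam2* alone was past 1.5-fold higher, where 1.75% of those genes were, and 0 were past 1.5-fold lower, where 1.42% were. The counting interval lay above a ratio of 0 on the log2 scale for 21 members, against 36.4% of all genes, and below it for 22, against 27.1% of all genes. At this depth counting error is small, and an interval that leaves out 0 therefore says little about differences between animals.

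**Figure D1:**
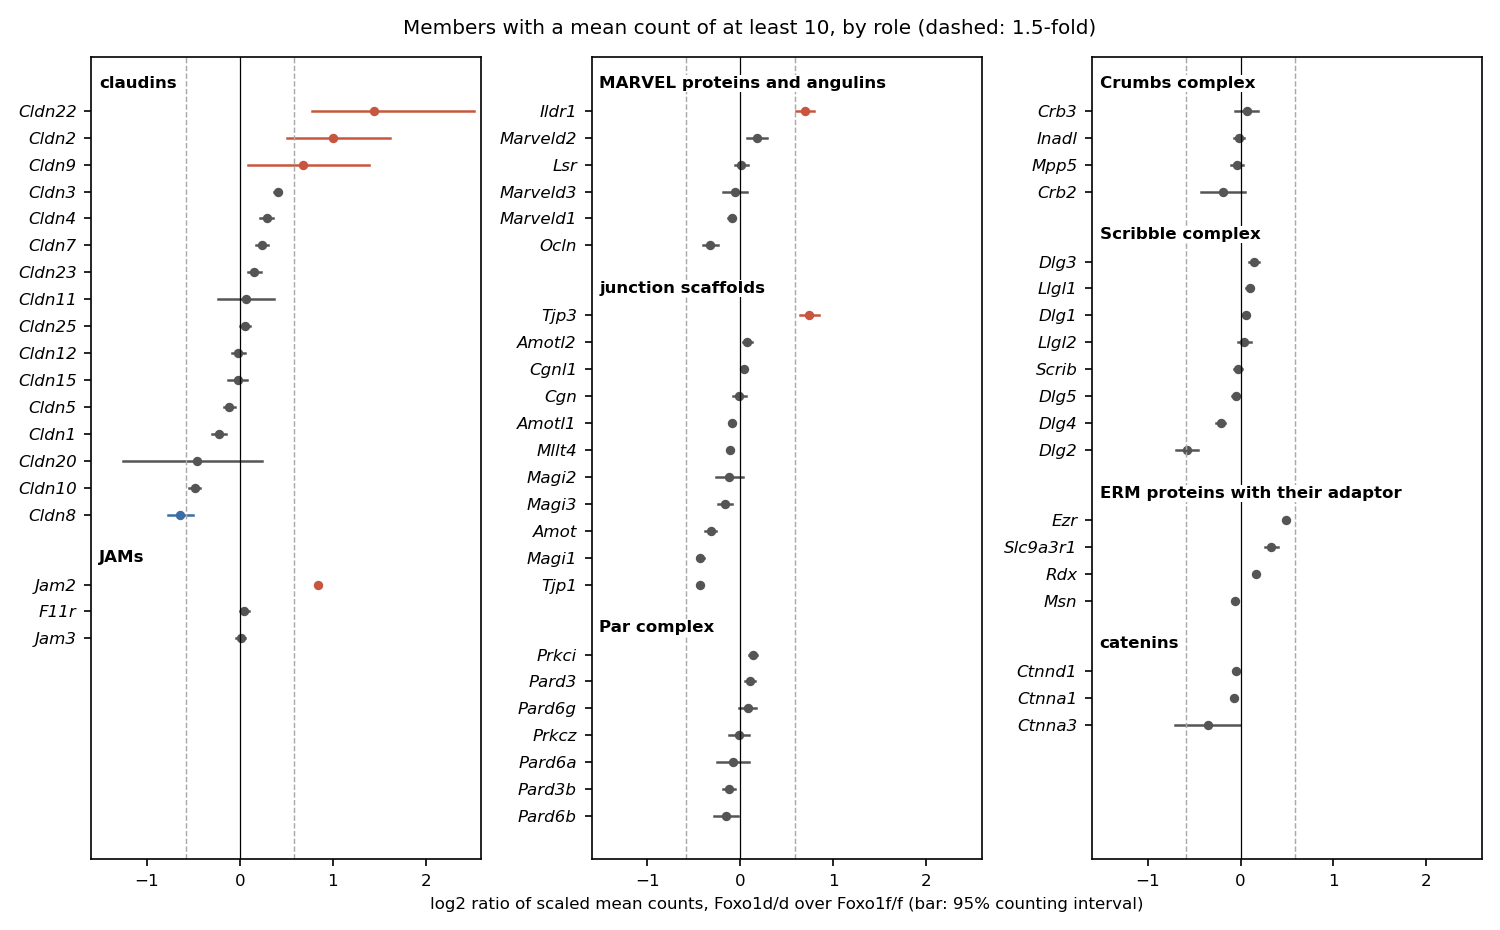
The log2 ratio of the genotypes, *Foxo1d/d* to *Foxo1f/f* (horizontal axis), is drawn for 62 of the 63 members with a mean count of at least 10 (1 is left out), sorted within each role; points are ratios of the authors' means and bars are 95% counting intervals. The 6 members past 1.5-fold higher are red and *Cldn8*, past 1.5-fold lower, is blue, and the other members drawn lie between the dashed lines.

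Of the 25 claudins, 16 had a mean count of at least 10, with 3 higher and 1 lower past 1.5-fold. Their median absolute log2 ratio was 0.26, against 0.10 for the 47 members of other roles with such counts, pooled, and 0.25 for the ERM role alone. Of the 16, 5 averaged fewer than 100 counts, where ratios of all genes spread more, and no difference between roles was tested. Their median log2 ratio was 0.06, which turned to -0.13 when ratios were centred on the epithelial markers.

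*Cldn3* was the claudin with the most counts per kilobase of exon. Its authors' mean count was 3405 in *Foxo1f/f* against 4712 in *Foxo1d/d* (log2 ratio 0.41, interval 0.37 to 0.44). Its neighbour on chromosome 5, *Cldn4*, averaged 1021 and 1302 counts, at a log2 ratio of 0.29 (0.22 to 0.36). Both encode claudins that the toxin of *Clostridium perfringens* binds, and both were higher in *Foxo1d/d* by less than 1.5-fold. *Cldn7*, a claudin also found along the lateral membrane, averaged 1209 and 1484 counts, at a log2 ratio of 0.23 (0.17 to 0.30). These 3 claudins kept a higher value in *Foxo1d/d* under each pseudocount and scaling that was tried, down to 0.04 for *Cldn7* when ratios were centred on the epithelial markers.

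The claudins that were lower make up another set. *Cldn8*, known as a sealing claudin of the kidney collecting duct, averaged 371 counts in *Foxo1f/f* against 248 in *Foxo1d/d* (log2 ratio -0.64, interval -0.78 to -0.51). It was 1.56-fold lower, just past the threshold, and its interval reaches across it. *Cldn10* encodes a claudin that forms ion channels in several epithelia, from alternative first exons that these counts do not separate. It averaged 1866 and 1390 counts, at a log2 ratio of -0.49 (-0.54 to -0.43), and 149 of the 7103 genes with mean counts of at least 1000 had a ratio as low or lower, itself included. *Cldn1*, a sealing claudin of skin and many other epithelia whose protein the study stained, averaged 1014 and 903 counts, at a log2 ratio of -0.23 (-0.30 to -0.15). In pregnant uteri of gestational day 4.5, the paper describes CLDN1 staining in stroma of both genotypes and in epithelium of *Foxo1d/d* alone. That is protein by compartment, unlike the RNA of whole pseudopregnant uteri read here. *Cldn5*, the main claudin of blood vessels, was the second claudin by level in both genotypes. It averaged 1534 and 1477 counts, at a log2 ratio of -0.12 (-0.18 to -0.06).

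The make-up of claudin RNA was computed per kilobase. *Cldn3* held 33.0% of the summed claudin counts per kilobase in *Foxo1f/f* and 39.7% in *Foxo1d/d*, 6.63 percentage points more. *Cldn10* held 8.80% and 5.68%, and passed from rank 4 to rank 7 among the claudins. *Cldn5* held 13.2% and 11.1%. The sum of all claudins, in counts per 1000000 counts of the genotype (CPM), was 313 CPM per kilobase in *Foxo1f/f* against 346 in *Foxo1d/d*, which is 0.14 higher on the log2 scale. *Cldn3*, *Cldn4* and *Cldn7* together made up 49.9% of it in *Foxo1f/f* and 57.9% in *Foxo1d/d*. The level of *Cldn3* was 375% of that of *Cldn10* in *Foxo1f/f* and 698% in *Foxo1d/d*.

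**Figure D2:**
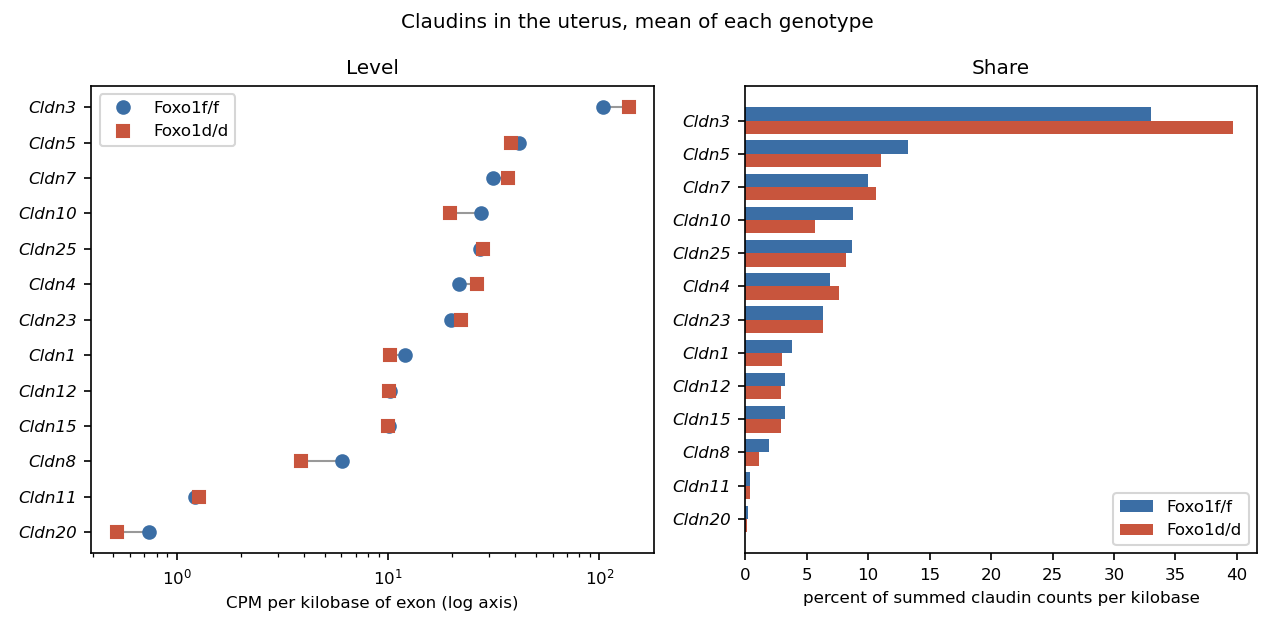
On the left, CPM per kilobase of exon (log axis) are drawn for the 13 claudins with the highest level in *Foxo1f/f*, with a circle for *Foxo1f/f* and a square for *Foxo1d/d*; on the right, bars give each one's percent of the summed claudin counts per kilobase. *Cldn3* leads in both genotypes with 33.0% and 39.7%, and *Cldn10* and *Cldn8* are lower in *Foxo1d/d*.

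At the low end, 3 claudins past 1.5-fold higher rested on few counts. *Cldn2*, which forms a channel for cations and water in leaky epithelia, averaged 14 and 30.33 counts, at a log2 ratio of 1.00 (interval 0.51 to 1.62). *Cldn9* averaged 11 and 19 counts, at a log2 ratio of 0.68 (0.08 to 1.39). *Cldn22* averaged 5.33 and 17.00 counts, at a log2 ratio of 1.45 (0.78 to 2.52). The *Cldn22* value is uncertain, since 100% of its exon length lies within exons of *Wwc2* on the opposite strand in GENCODE M21, and whether counting used strand is not given in the sources used here. *Wwc2* itself averaged 1256 and 1302 counts, at a log2 ratio of -0.01. In both genotypes the level of *Cldn2*, *Cldn9* and *Cldn22* was under 1 CPM per kilobase, beside 104 for *Cldn3* in *Foxo1f/f*. Of the other low claudins, *Cldn20* averaged 12.67 and 9.33 counts with a counting interval that holds 0 (-1.26 to 0.24).

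Among the 11 members with a mean count under 10 were 9 claudins, *Crb1* and *Ctnna2*. *Cldn19* averaged 4.67 and 8.33 counts. The other 10 had a mean count of 3 or less per library in both genotypes, and no ratio is given for them. These were *Cldn6*, *Cldn13*, *Cldn14*, *Cldn16*, *Cldn17*, *Cldn18*, *Cldn24*, *Cldn26*, *Crb1* and *Ctnna2*. *Cldn14* and *Cldn18* had 0 counts, which allows up to 0.0383 CPM in *Foxo1f/f* and 0.0367 in *Foxo1d/d*. *Cldn18* marks stomach and lung epithelium and *Cldn14* the inner ear and liver. *Cldn16*, a claudin of the kidney, averaged 0.33 counts in both genotypes. Some of these lie next to abundant members on their chromosomes: *Cldn16* lies beside *Cldn1*, *Cldn17* beside *Cldn8*, and *Cldn13* beside *Cldn4*. Between the low extremes and the leaders, *Cldn12* (1051 and 1083), *Cldn15* (488 and 501), *Cldn25* (1561 and 1691) and *Cldn11* (59.33 and 65.00) had counting intervals that include 0. *Cldn25* is named *Cldnd1* in RefSeq and encodes a claudin domain protein; without it, *Cldn3* held 36.2% and 43.2%. *Cldn23* averaged 953 and 1108 counts, at a log2 ratio of 0.16 (0.08 to 0.23).

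Promoter sequences of the members were read from RefSeq (GRCm38.p6) as windows of 300 bases, from 250 before to 50 after a transcript's start. Such windows were found for 61 of the 74 members, 93 windows in all, and some of a gene's windows overlap. Members without one included *Cldn8*, *Cldn9*, *Cldn13*, *Cldn23*, *Ctnna1*, *Jam2*, *Jam3*, *Llgl2*, *Marveld3*, *Mpp5*, *Pard6g* and *Scrib*. Letters bound by factors known for junction genes and by the forkhead family were searched on both strands. The forkhead letters GTAAACA were in 1 of the 93 windows (1.08%) and in 3.65% of all 32851 windows, and the member with them was *Rdx*. CAGGTG, the E-box that SNAI and ZEB factors bind, was in 27 windows of 22 members (29.0%), against 20.2% of all windows. The GC box GGGCGG was in 57.0% of the member windows and 35.7% of all windows. The median GC content was 59.3% for the member windows and 52.7% for all windows. The grainyhead letters AACCGGTT were in 0 member windows and 0.146% of all windows. A match of letters is a description and was not tested as a site.

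Windows are shown for *Cldn3* and *Cldn4*, neighbours that were both higher, for *Ildr1* and *Tjp3*, which were past 1.5-fold higher, and for *Rdx*, the holder of the forkhead letters. Each runs 5′ to 3′ on the strand of its gene, and capitals mark the E-box CAGGTG or its reverse CACCTG, the GC box GGGCGG or its reverse CCGCCC and, in *Rdx*, GTAAACA; no capital run is shared by different motifs. *Tjp3* has a further window just upstream, with 1 E-box, and *Rdx* a further one with no match. The *Cldn3* window lies at chr5:134985964-134986263 (+), that of *Cldn4* at chr5:134946885-134947184 (-), that of *Ildr1* at chr16:36693728-36694027 (+), that of *Tjp3* at chr10:81291218-81291517 (-) and that of *Rdx* at chr9:52047691-52047990 (+).
Cldn3: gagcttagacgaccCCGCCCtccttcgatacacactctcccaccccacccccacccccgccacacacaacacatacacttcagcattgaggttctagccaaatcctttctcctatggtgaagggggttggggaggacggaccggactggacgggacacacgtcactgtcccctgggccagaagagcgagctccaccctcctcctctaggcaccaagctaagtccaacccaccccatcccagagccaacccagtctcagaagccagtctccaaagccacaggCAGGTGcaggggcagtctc
Cldn4: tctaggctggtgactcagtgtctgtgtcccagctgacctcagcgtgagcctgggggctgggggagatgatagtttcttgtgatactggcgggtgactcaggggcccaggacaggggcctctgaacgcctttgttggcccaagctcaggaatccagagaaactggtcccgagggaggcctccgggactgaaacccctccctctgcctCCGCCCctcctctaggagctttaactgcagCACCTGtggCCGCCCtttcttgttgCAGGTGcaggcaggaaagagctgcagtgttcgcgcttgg
Ildr1: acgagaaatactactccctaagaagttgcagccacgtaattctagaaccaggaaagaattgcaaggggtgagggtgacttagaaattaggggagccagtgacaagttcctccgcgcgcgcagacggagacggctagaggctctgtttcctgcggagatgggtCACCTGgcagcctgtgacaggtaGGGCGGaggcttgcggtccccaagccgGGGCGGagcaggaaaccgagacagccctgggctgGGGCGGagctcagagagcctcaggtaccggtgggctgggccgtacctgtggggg
Tjp3: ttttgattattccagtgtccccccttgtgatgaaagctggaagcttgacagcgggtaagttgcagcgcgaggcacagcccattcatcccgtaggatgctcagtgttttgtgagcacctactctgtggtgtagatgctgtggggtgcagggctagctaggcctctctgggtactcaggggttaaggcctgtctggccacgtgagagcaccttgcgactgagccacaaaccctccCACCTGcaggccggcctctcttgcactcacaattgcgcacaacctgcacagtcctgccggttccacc
Rdx: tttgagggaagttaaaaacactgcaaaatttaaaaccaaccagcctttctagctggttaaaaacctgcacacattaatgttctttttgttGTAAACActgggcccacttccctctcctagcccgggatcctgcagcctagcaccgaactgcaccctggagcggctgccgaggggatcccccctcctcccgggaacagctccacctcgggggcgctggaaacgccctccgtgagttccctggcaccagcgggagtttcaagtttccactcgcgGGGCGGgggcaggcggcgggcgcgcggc
E-box letters stand in the *Cldn3*, *Cldn4*, *Ildr1* and *Tjp3* windows, once each except in *Cldn4*, where they begin at bases 237 and 262.

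Among the MARVEL proteins and angulins, 1 of 6 members was past 1.5-fold higher and 0 lower, with a median log2 ratio of -0.02. That member was *Ildr1*, which encodes angulin-2, a protein that brings tricellulin to the corners where cells meet. It averaged 450 counts in *Foxo1f/f* against 762 in *Foxo1d/d* (log2 ratio 0.70, interval 0.60 to 0.80), a fold of 1.62. Its paralog *Lsr*, angulin-1, averaged 1083 and 1141 counts, at a log2 ratio of 0.01 (-0.06 to 0.08), which turned negative when ratios were centred on the median gene. Per kilobase, *Ildr1* stood at 29.7% of the level of *Lsr* in *Foxo1f/f* and at 47.7% in *Foxo1d/d*. The *Lsr* value is uncertain, since 40.8% of its exon length overlaps opposite strand genes in GENCODE M21. *Marveld2*, which encodes tricellulin itself, averaged 437 and 517 counts, at a log2 ratio of 0.18 (0.07 to 0.29). Occludin, encoded by *Ocln*, went the other way. It averaged 846 and 706 counts, at a log2 ratio of -0.32 (-0.40 to -0.24). *Marveld1*, the member of the group with the most counts per kilobase, averaged 3088 and 3020 counts, at a log2 ratio of -0.09 (-0.13 to -0.05), and the interval of *Marveld3* included 0.

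*Jam2* was the member with the largest difference among those with mean counts of at least 1000. JAM-B, its protein, is an immunoglobulin family adhesion molecule known from vessels, lymphatics and male germ cells. The authors' mean count was 3862 in *Foxo1f/f* against 7213 in *Foxo1d/d* (log2 ratio 0.84, interval 0.81 to 0.87), a fold of 1.79. Of the 7103 genes with mean counts of at least 1000, *Jam2* ranked 64 from the highest ratio. The other JAMs stayed near 0: *F11r*, which encodes JAM-A of epithelial tight junctions, averaged 2215 and 2388 counts, at a log2 ratio of 0.05, with an interval up to 0.10 that includes 0. *Jam3*, whose protein is the partner of JAM-B on neighbouring cells, had 2182 and 2294 and a log2 ratio of 0.01 (-0.04 to 0.06), which turned negative when ratios were centred on the median gene. Its value is uncertain as well, with 30.3% of its exon length under an opposite strand gene. Per kilobase, the level of *Jam2* was 78.6% of that of *Jam3* in *Foxo1f/f* and 140% in *Foxo1d/d*. *Jam2* thus passed from the lower to the higher level of this receptor pair. The endothelial markers *Pecam1*, *Cdh5*, *Kdr*, *Tie1* and *Emcn* had log2 ratios from -0.24 to -0.20, and the part of vessels, lymphatics or other cells in the *Jam2* value was not tested.

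**Figure D3:**
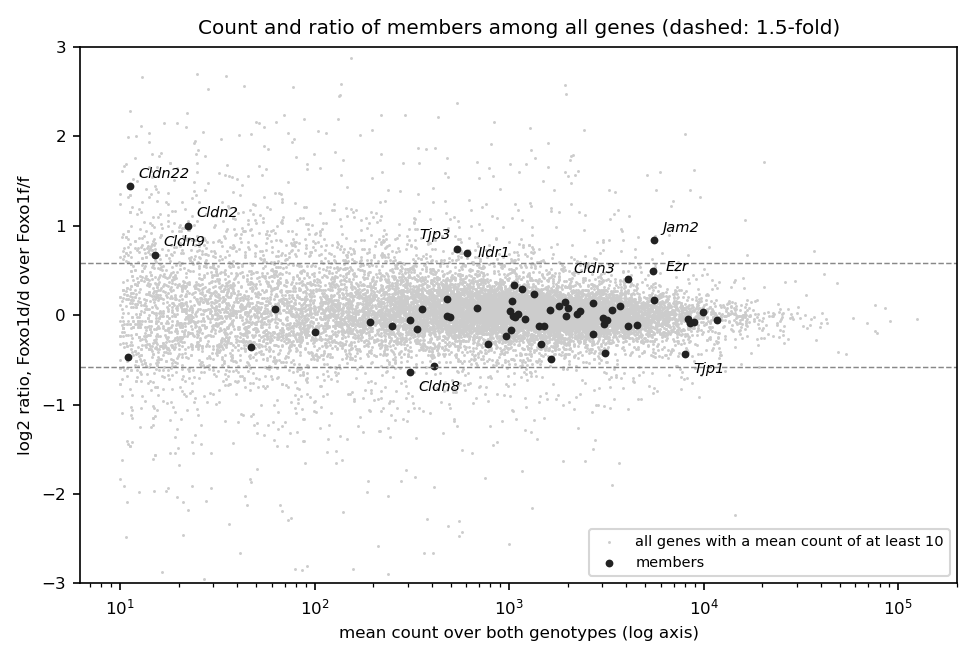
Each gene with a mean count of at least 10 is a point, with its mean count over both genotypes on the horizontal log axis and its log2 ratio (*Foxo1d/d* to *Foxo1f/f*) on the vertical axis, which leaves out 28 genes beyond 3 in either direction; members are black. *Jam2* stands apart from the other abundant members at 0.84, and *Cldn22*, *Cldn2* and *Cldn9* lie where low counts spread all genes widely.

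Of the 11 scaffolds drawn, 3 were above 0 and 8 below, with a median log2 ratio of -0.11, against 0.02 for all genes. *Tjp3* encodes ZO-3, a scaffold of epithelia. It averaged 393 counts in *Foxo1f/f* against 687 in *Foxo1d/d* (log2 ratio 0.74, interval 0.64 to 0.85), a fold of 1.67. *Tjp1* encodes ZO-1, a scaffold of epithelia and many other cells that the study stained. It averaged 9057 and 6980 counts, at a log2 ratio of -0.44 (-0.46 to -0.41), and 193 of the 7103 genes with mean counts of at least 1000 had a ratio as low or lower, itself included. In pregnant uteri, the paper describes ZO-1 protein in the LE of *Foxo1f/f* implantation sites. It was absent where uterus and embryo meet in *Foxo1d/d*, and stroma of both genotypes was positive. Here too, protein by compartment is another measure than whole uterine RNA. Per kilobase, *Tjp3* stood at 9.83% of the level of *Tjp1* in *Foxo1f/f* and at 22.3% in *Foxo1d/d*. These paralogs thus lay on opposite sides, with a difference of 1.18 between the log2 ratios of *Tjp3* and *Tjp1* (1.07 to 1.28 by a normal approximation of counting error).

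*Magi1*, whose protein holds several PDZ domains under junctions, had a pattern like *Tjp1*, averaging 3504 and 2716 counts, at a log2 ratio of -0.43 (interval -0.47 to -0.39). Its relatives *Magi3* (-0.16) and *Magi2* (-0.12) were closer to 0. *Amot*, for the angiomotin that binds YAP, averaged 1584 and 1327 counts, at a log2 ratio of -0.32 (-0.38 to -0.26). *Amotl1* (-0.09) and *Amotl2* (0.08) were within 0.2 of 0. *Cgnl1*, which encodes paracingulin and had the most counts per kilobase among the scaffolds, averaged 9580 and 10279 counts, at a log2 ratio of 0.04 (0.02 to 0.06). Its epithelial relative *Cgn*, for cingulin, had 1027 and 1065 and a log2 ratio of -0.01 (-0.08 to 0.06). *Mllt4*, for afadin, which joins nectins to actin, averaged 4624 and 4481 counts, at a log2 ratio of -0.11 (-0.14 to -0.07).

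In the Par complex, 0 of 7 members were past 1.5-fold and all 7 were within 0.2 of 0, as were 63.3% of all genes, and the median log2 ratio was -0.01. Its most abundant member per kilobase was *Prkci*, the atypical protein kinase C iota, averaging 2504 and 2873 counts, at a log2 ratio of 0.14 (interval 0.09 to 0.18). *Pard3*, the scaffold of the complex, had 1700 and 1908 and a log2 ratio of 0.10 (0.05 to 0.16). Its paralog *Pard3b*, with 1443 and 1387, stood at -0.12 (-0.18 to -0.06). Of the adaptors that bind atypical protein kinase C, *Pard6b* (-0.15) and *Pard6a* (-0.08) were below 0 and *Pard6g* (0.08) above it.

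The Crumbs complex, which marks the apical membrane, had 4 of 5 members with a mean count of at least 10, and 0 were past 1.5-fold. The epithelial *Crb3* averaged 341 and 373 counts, at a log2 ratio of 0.07 (interval -0.06 to 0.19). Its partners *Mpp5*, for PALS1, and *Inadl*, for PATJ, stood at -0.04 (-0.10 to 0.03) and -0.01 (-0.07 to 0.04). The intervals of these genes and of *Crb2* all included 0.

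In the Scribble complex of the basolateral side, 0 of 8 members were past 1.5-fold and the median log2 ratio was 0.01, which turned to -0.02 when ratios were centred on the median gene. *Llgl1* had the highest level per kilobase, averaging 3500 and 3915 counts, at a log2 ratio of 0.10 (interval 0.06 to 0.14). *Scrib* had 2992 and 3059, at -0.03 (-0.07 to 0.01). *Dlg2* stood out, averaging 484 and 340 counts, at a log2 ratio of -0.57 (-0.69 to -0.46), just inside the 1.5-fold threshold. Its family, known for scaffolds at neuronal synapses and epithelial sides, otherwise lay between *Dlg4* at -0.21 (-0.26 to -0.17) and *Dlg3* at 0.15 (0.09 to 0.20).

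ERM proteins link actin to the plasma membrane, ezrin mainly in microvilli of epithelia and moesin in stroma, leukocytes and vessels. The 4 members had a median log2 ratio of 0.25, the highest of the 9 roles, which became 0.06 when ratios were centred on the epithelial markers, and 0 were past 1.5-fold. *Ezr* averaged 4449 and 6514 counts, at a log2 ratio of 0.49 (interval 0.46 to 0.52). Its adaptor at the apical membrane, *Slc9a3r1*, also called EBP50, averaged 913 and 1200 counts, at a log2 ratio of 0.33 (0.26 to 0.41). *Rdx*, for radixin, had 5094 and 5985 and a log2 ratio of 0.17 (0.14 to 0.20), which turned negative when ratios were centred on the epithelial markers. *Msn*, for moesin, had 11701 and 11752 and a log2 ratio of -0.06 (-0.08 to -0.03). Per kilobase, *Ezr* stood at 46.2% of the level of *Msn* in *Foxo1f/f* and 67.3% in *Foxo1d/d*.

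Of the catenins, which tie cadherins to actin, *Ctnna1* averaged 8989 and 8911 counts, at a log2 ratio of -0.07 (interval -0.10 to -0.05). *Ctnnd1*, for p120 catenin, had 8195 and 8290 and a log2 ratio of -0.04 (-0.07 to -0.02). *Ctnna3* had 52.00 and 42.33, at -0.35 (-0.71 to -0.01). The value of *Ctnnd1* is uncertain, since 71.6% of its exon length is shared with a same strand gene model in GENCODE M21.

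Markers of the cell types in the uterus were read beside the members. All 8 epithelial markers had a mean count of at least 10, 6 were higher in *Foxo1d/d*, 1 of them (*Krt19*) past 1.5-fold, and 0 were past 1.5-fold lower. Their median log2 ratio was 0.19. Summed over the list, they gave 656 CPM in *Foxo1f/f* and 772 in *Foxo1d/d*, with *Cdh1* as the most abundant at mean counts of 4438 and 4981. *Krt19* averaged 757 and 1842 counts and *Epcam* 2748 and 3012. The keratin *Krt8* stood at a log2 ratio of 0.48 and its partner *Krt18* at -0.03. *Ildr1*, *Tjp3*, *Cldn3*, *Cldn4*, *Cldn7*, *Ezr* and *Slc9a3r1* were higher together with this list, and its part in their values was not tested. With ratios centred on the list's median, *Jam2*, *Cldn2* and *Cldn22* remained past 1.5-fold higher, with *Jam2* at 0.65. *Tjp3* (0.55) and *Ildr1* (0.50) then lay within 1.5-fold, while *Tjp1* (-0.63), *Magi1* (-0.62), *Cldn10* (-0.68) and *Dlg2* (-0.77) were past it on the lower side.

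The LE markers *Lpar3* (402 and 1240) and *Wnt7a* (522 and 859) were higher past 1.5-fold. Of the 4 GE markers, *Cxcl15* was not found under that symbol. The secreted products *Prss29* (13746 and 652) and *Spink3* (3104 and 124) were lower, and *Prss29*, the most abundant, can share reads with close paralogs. The GE transcription factor *Foxa2* averaged 280 and 300 counts, at a log2 ratio of 0.04 (interval -0.10 to 0.18). The GE sum was 656 and 39.5 CPM. *Cldn8* and *Cldn10* were lower together with the secreted GE products, and the part of GE in their values was not tested.

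Among other cell types, all 5 smooth muscle markers were lower, with a median log2 ratio of -0.34 and a sum of 5447 and 4362 CPM led by *Myh11*. All 5 endothelial markers were lower as well, with a median of -0.22 and a sum of 1205 and 1036 led by *Pecam1*. *Tjp1*, *Magi1* and *Amot*, expressed well beyond epithelia, were lower together with these lists, and so was *Cldn5*, whose log2 ratio of -0.12 was nearer to 0 than that of any endothelial marker. Their part in these values was not tested. The 7 stromal markers had a median of -0.11 and a sum of 6784 and 6720, led by *Col1a1*. The 6 leukocyte markers, with F4/80 under its older symbol *Emr1*, were higher, with a median of 0.35 and a sum of 287 and 363, led by *Ptprc*, and *Cd3e* was past 1.5-fold. The 3 mesothelial markers had a median of 0.33 and a sum of 46.1 and 53.5, led by *Upk3b*, and the oviduct genes *Ovgp1* (0.17), the more abundant, and *Pax8* (-0.08) had a sum of 165 and 176.

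In stratified squamous epithelium, *Krt5*, the most abundant, averaged 37.00 and 236 counts, *Krt14* 15.00 and 66.33, and *Krt15* 15.33 and 184. *Dsg3* was lower at 67.67 and 29.67, *Trp63* had a log2 ratio of 0.08, and *Krt6a* was at or under 3 counts per library. The list's sum was 8.64 and 22.6 CPM, and its median log2 ratio 2.01. The 3 adipocyte markers were past 1.5-fold higher, with a median of 2.10 and a sum of 3.94 and 16.0, led by *Adipoq*. The higher claudins with few counts, *Cldn2*, *Cldn9* and *Cldn22*, were higher together with these lists, and the part of such cells in their values was not tested. The study's RNA methods, written for operated mice, discard the cervix, a site of squamous epithelium, and whether that held for these uteri is not given.

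**Figure D4:**
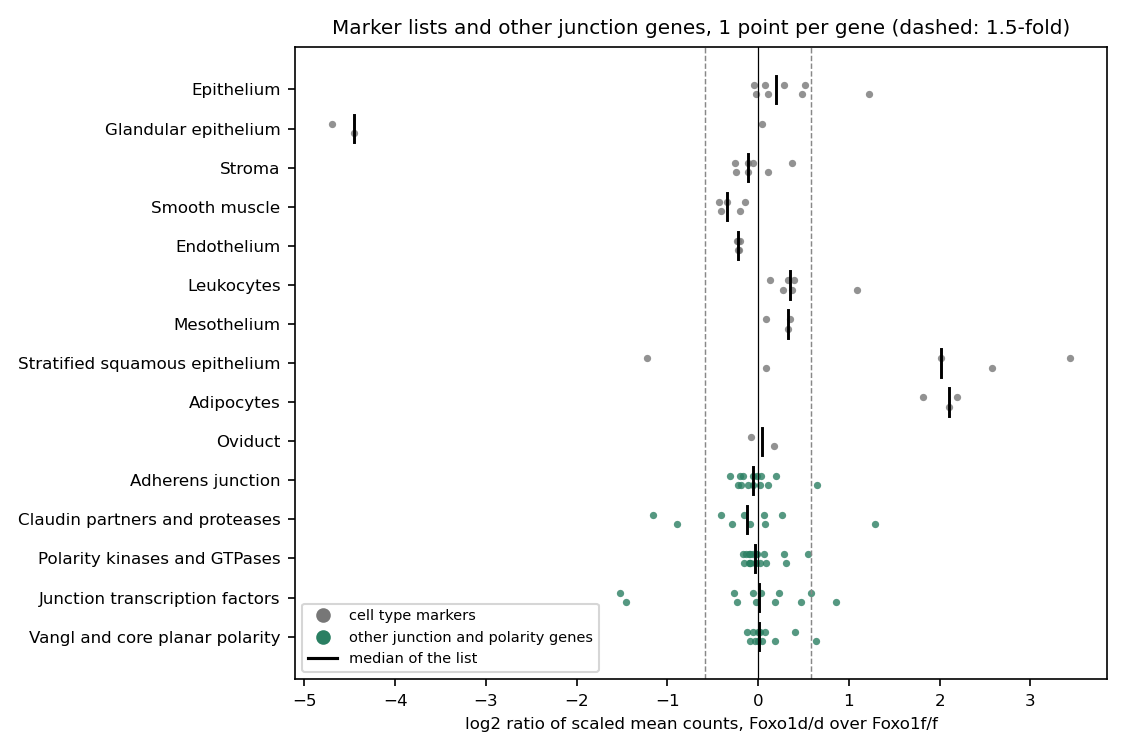
Each point is the log2 ratio (horizontal axis, *Foxo1d/d* to *Foxo1f/f*) of 1 gene of a cell type marker list (grey) or of a list of other junction and polarity genes (green), with a black line at the list's median and dashed lines at 1.5-fold. Epithelial markers have a median of 0.19, and endothelial and smooth muscle markers lie below 0. The junction and polarity lists have medians from -0.13 (claudin partners and proteases) to 0.01 (junction transcription factors), and both of these lists hold genes past 1.5-fold in either direction.

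Junction and polarity genes outside the 74 were read from 5 further lists. Together they held 69 genes, of which 67 had a mean count of at least 10, and 5 were past 1.5-fold higher and 4 past 1.5-fold lower, with a median log2 ratio of -0.03. Over all genes the shares were 5.43% and 3.51%. Centred on the epithelial markers, the split was 2 higher and 5 lower. In the adherens junction, where the nectins stand under their older *Pvrl* symbols, 1 of 14 genes found was past 1.5-fold higher and 0 lower. This was *Arvcf*, a relative of *Ctnnd1*, averaging 582 and 952 counts, at a log2 ratio of 0.65, while the most abundant genes, *Ctnnb1* (0.02) and *Cdh11* (-0.17), were close to 0.

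Among partners of claudins and proteases that act at junctions, *Spint1*, for the inhibitor HAI-1 of matriptase, averaged 2282 and 1278 counts, at a log2 ratio of -0.90 (interval -0.96 to -0.84). *Tspan1*, a tetraspanin, had 348 and 890 and a log2 ratio of 1.29. The most abundant of the list were *Wnk1* (-0.09), a kinase that phosphorylates claudins, and *Cd9* (0.06).

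Kinases, GTPases and myosins of polarity and junction contraction had no gene past the threshold. Of 19, 0 were past 1.5-fold higher or lower, and the median log2 ratio was -0.03. The most abundant were *Mylk* (-0.03) and *Myh9* (-0.09). Of 12 core planar polarity genes, *Celsr2* was past 1.5-fold higher, averaging 983 and 1599 counts, at a log2 ratio of 0.64 (interval 0.57 to 0.71), and 0 were lower. The most abundant of these, *Dvl1* and *Fzd6*, stood at -0.09 and 0.41.

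Among transcription factors known for epithelial junction genes, *Elf3*, an ETS factor of differentiated epithelia, averaged 590 and 1118 counts, at a log2 ratio of 0.86 (interval 0.78 to 0.94). *Snai1*, a repressor of cadherin and claudin genes, had 678 and 1062 and a log2 ratio of 0.59 (0.51 to 0.67), which lay within 1.5-fold when ratios were centred on the median gene. *Grhl1* had 169 and 60.67 and a log2 ratio of -1.53 (-1.79 to -1.30), while its paralog *Grhl2*, known to act on *Cldn4* and *Cdh1*, had 869 and 1260 and a log2 ratio of 0.47 (0.40 to 0.55). *Cdx2* and *Grhl3* were at or under 3 counts per library. The most abundant factors, *Zeb1* (0.04) and *Zeb2* (-0.02), which repress epithelial genes in mesenchyme, were close to 0.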

How the data were processed

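RNA-seq libraries of mouse uteri, 3 per genotype, were trimmed, mapped with STAR, cleared of duplicates with Picard, counted on RefSeq genes with HTSeq and compared with edgeR by the authors. The build is mm9 in the submitters' processing notes and mm10 in the study's methods, and no coordinate of the deposited values was used. Versions, strand and overlap settings of counting are not given in the sources used here. The authors deposited 1 table, with the mean raw count per gene and genotype (each a whole number when multiplied by 3, within a tolerance of 1e-06). It also holds the authors' fold change, mean log2 CPM, p-value and FDR, which were not used. The number of other columns of single samples is 0.

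The table holds means, so the test planned for counts of single libraries could not be run, and the ratio of mean counts planned for that case was used. Summed counts were 78375043 in *Foxo1f/f* and 81773890 in *Foxo1d/d*. Pseudocount 1, the minimum mean count of 10 over both genotypes and the threshold of 1.5-fold gave the counts of genes. Ratios with a mean of 3 or less per library in both genotypes were not given. Lengths are unions of the exons of GENCODE M21 transcripts with a RefSeq match, found for all 74 members through Entrez IDs, of which 4 have another symbol in RefSeq GRCm38.p6 (*Cldn25* is *Cldnd1*, *Cldn26* *Tmem114*, *Inadl* *Patj* and *Mllt4* *Afdn*).

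Members and lists were chosen with earlier results of these data known. Named are *Foxo1*, members past 1.5-fold, the 3 members per role with the most counts per kilobase, *Cldn1* and *Tjp1*, which the study stained, their paralogs and neighbours, and from the other lists most genes past 1.5-fold and the 2 with the most counts. Results of some genes and of some marker lists are left out of the text and figures. Other genes, such as *Dlg2*, *Magi1*, *Amot* and *Cldn10*, were named after their values were seen, and the motifs were chosen then as well. Alternatives were other pseudocounts, scalings, minimum counts and folds. Python 3.11.15, numpy 2.4.6, pandas 2.3.3, scipy 1.17.1 and matplotlib 3.10.9 were used. The steps were tested on simulated data that held counting error alone, so that spread between pools was not covered.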

Additional observations from a re-analysis of the deposited data

How the results depend on the processing

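No paired analysis was possible because the counts of single libraries, whose labels share the replicate numbers 1 to 3, were not used here; for the same reason leaving out each library, a replicate block and DESeq2 in place of edgeR were not run. With pseudocounts of 0.1 and 5, 6 and 5 members were past 1.5-fold higher and 1 was lower. Centred on the median gene or scaled by a trimmed mean of log ratios, 2 were lower, since *Dlg2* lay just inside the threshold. With a minimum mean count of 1 and with no filter, 7 and 8 were higher. A minimum mean count of 50 left 3 higher, and of 1000, chosen after seeing the data, 1 higher and 0 lower, because fewer genes were counted. At the lower of 2 other fold thresholds 9 were higher and 7 lower, and at 2-fold 2 were higher and 0 lower, by the change of threshold. Centred on the epithelial markers, also chosen after seeing the data, which moves all ratios by 0.19 on the log2 scale, 3 members were higher and 6 lower, the members' median was -0.21, and 2 of the other junction genes were higher and 5 lower. The same shift left 3.30% of all genes higher and 6.76% lower. By arithmetic the sign of 18 members changed under it and of 2, *Jam3* and *Lsr*, when centred on the median gene. The gain of *Cldn3* in the claudin sum was 6.00 percentage points without division by length and 7.01 without *Cldn25*. Depth limits *Cldn2*, *Cldn9*, *Cldn20* and *Cldn22*, whose counting intervals are wide, and no value here has a spread between pools.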
